A study of Mus musculus with 12 samples.

Results

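The 10 genes described here encode chemokines, read in cultures of fibroblasts: Cxcl12, Cxcl1, Cxcl5, Cxcl15, Ppbp, Cxcl16, Ccl2, Ccl7, Ccl8 and Ccl5. They were taken by symbol from the probe sets that the platform annotation assigns to a single gene, and each of the 10 had 1 such probe set, out of 19938 genes named in this way. Chemokines are small secreted proteins that attract cells by binding receptors coupled to G proteins. They are named for the spacing of their first cysteines: CXC chemokines have a residue between them and CC chemokines have none. Embryonic fibroblasts are stromal cells, and stromal cells use Cxcl12 to hold stem and progenitor cells that carry its receptor Cxcr4, Cxcl1 and Cxcl5 to attract neutrophils through Cxcr2, and Ccl2 and Ccl7 to attract monocytes through Ccr2.

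RNA came from mouse embryonic fibroblasts (MEFs) from OG2 cross 129/sv, cultured in medium for mouse embryonic stem cells after 2 rounds of infection. OG2 mice are known to carry a green fluorescent reporter under Oct4 control. One arm, named Group1 in the labels, was reprogrammed with SKO, letters that the labels do not spell out and that are read here as Sox2, Klf4 and Oct4; the other arm, Group2, did not. Within each arm, cells also received a retrovirus with microRNA cluster B, one with cluster C, or a blank control virus, and were lysed 4 or 8 days after the first infection. Each of the 12 combinations had 1 array. The 3 arrays of an arm and day therefore differ in virus, and SDs below are over those 3 arrays. All 12 arrays had 1 and the same description text, which names another kind of cell and day than the titles, so groups were taken from the titles.

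Deposited log2 values had array medians between 4.98 and 5.07, and lower quartiles between 3.48 and 3.68. Pou5f1, which encodes Oct4, was at 11.6 or above on the 6 arrays of the SKO arm and at 4.56 or below on the others. Differences are given in log2 units with the SE of a limma fit over all 12 arrays, and a gene is called where its Benjamini-Hochberg adjusted p over all 19938 genes was under 0.05. The spread in that fit is what remains after the effects of SKO, day, virus and their interactions with SKO, and no label says that arrays came from separate experiments, so p-values measure that spread, which may be technical. None of 14 fibroblast markers measured lay below the array median on all 12 arrays, and neither did any of 9 markers of pluripotent cells. The mean log2 value of the 14 fibroblast markers was 9.55 or above on every array. That of the 9 pluripotent cell markers was lower. It ran from 3.97 to 4.26 with SKO at day 4 and from 4.83 to 6.81 with SKO at day 8. Without SKO it ran from 4.2 to 4.42 at day 4 and from 4.25 to 4.3 at day 8, under the array medians.

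The stretch before the start of transcription, from RefSeq (build GRCm38.p6), was matched and is shown for 5 of the 10 genes; the other 5 were not analysed here. The 5 were those with a match and were not chosen by their values. They include genes with large falls (Cxcl12, Cxcl15, Ppbp), a small one (Cxcl1) and the largest rise (Ccl8). Each sequence covers the 250 bases before the start, 5′ to 3′. Capitals mark matches on either strand to TATAAA, to the NF-kappa-B consensus or to GGGCGG, the core of a GC box, and neighbouring matches can overlap.

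Cxcl12 (chr6:117168285-117168534, + strand, GGGCGG in capitals): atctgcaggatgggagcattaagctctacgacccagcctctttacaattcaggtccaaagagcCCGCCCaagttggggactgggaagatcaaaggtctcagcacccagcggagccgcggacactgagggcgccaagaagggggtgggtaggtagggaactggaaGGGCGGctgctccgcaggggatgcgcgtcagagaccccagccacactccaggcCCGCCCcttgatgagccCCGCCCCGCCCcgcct

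Cxcl15 (chr5:90794284-90794533, + strand, TATAAA in capitals): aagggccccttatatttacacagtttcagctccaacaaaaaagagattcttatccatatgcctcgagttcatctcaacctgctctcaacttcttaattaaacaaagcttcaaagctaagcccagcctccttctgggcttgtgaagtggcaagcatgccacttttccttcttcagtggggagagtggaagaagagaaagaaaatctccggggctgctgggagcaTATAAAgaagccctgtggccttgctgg

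Ppbp (chr5:90768268-90768517, + strand, TATAAA in capitals): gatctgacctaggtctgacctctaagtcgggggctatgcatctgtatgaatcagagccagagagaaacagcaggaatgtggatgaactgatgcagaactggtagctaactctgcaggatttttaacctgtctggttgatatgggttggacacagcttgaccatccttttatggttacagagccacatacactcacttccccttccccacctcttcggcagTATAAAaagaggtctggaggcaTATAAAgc

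Cxcl1 (chr5:90890995-90891244, + strand, NF-kappa-B in capitals): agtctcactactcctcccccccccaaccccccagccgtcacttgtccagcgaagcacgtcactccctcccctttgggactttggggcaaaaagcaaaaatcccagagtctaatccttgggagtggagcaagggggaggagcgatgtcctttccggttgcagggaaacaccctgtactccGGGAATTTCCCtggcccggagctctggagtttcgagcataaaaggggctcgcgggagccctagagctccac

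Ccl8 (chr11:82114935-82115184, + strand, TATAAA in capitals): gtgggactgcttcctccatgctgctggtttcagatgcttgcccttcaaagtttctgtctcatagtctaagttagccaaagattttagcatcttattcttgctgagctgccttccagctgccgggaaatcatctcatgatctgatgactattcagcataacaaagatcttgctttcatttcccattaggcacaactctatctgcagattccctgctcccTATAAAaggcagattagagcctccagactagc

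The Cxcl12 stretch held 5 matches to GGGCGG and 14 CG dinucleotides, against a median of 6 CG dinucleotides over 32851 promoter stretches of the same length. It was 64.4% G or C. The Ppbp, Cxcl15 and Ccl8 stretches held 2, 2 and 1 CG dinucleotides, and TATAAA occurred 2 times in Ppbp and 1 time each in Cxcl15 and Ccl8. Cxcl1 held 10 CG dinucleotides and 2 overlapping matches to the NF-kappa-B consensus, 1 on each strand; NF-kappa-B is the transcription factor through which inflammatory signals induce Cxcl1. Among all 32851 stretches, 12.4% held TATAAA, 32.7% held GGGCGG and 7.25% held the NF-kappa-B consensus. These letters describe the stretches and do not show that a factor was bound. TATAAA was found both before genes that fell with SKO (Ppbp, Cxcl15) and before one that rose (Ccl8).

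SKO was compared with no SKO at each day. Of the CXC genes, Cxcl12, Cxcl1, Cxcl5, Cxcl15 and Ppbp were lower with SKO at both days, and Cxcl16 was called at neither. Of the CC genes, Ccl2, Ccl7 and Ccl8 were higher and Ccl5 was lower. At day 4, 3 of the 10 genes were called higher and 6 lower, where 9.52% of all genes were called higher and 9.4% lower. At day 8 the counts were again 3 and 6, where 13.4% and 12.7% of all genes were called. The median log2 difference of the 10 was -0.56 at day 4 and -0.92 at day 8, against -0.036 and -0.069 over all genes. The 9 called genes had the same sign in all 3 matched pairs of arrays at both days.

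**Figure D1:**
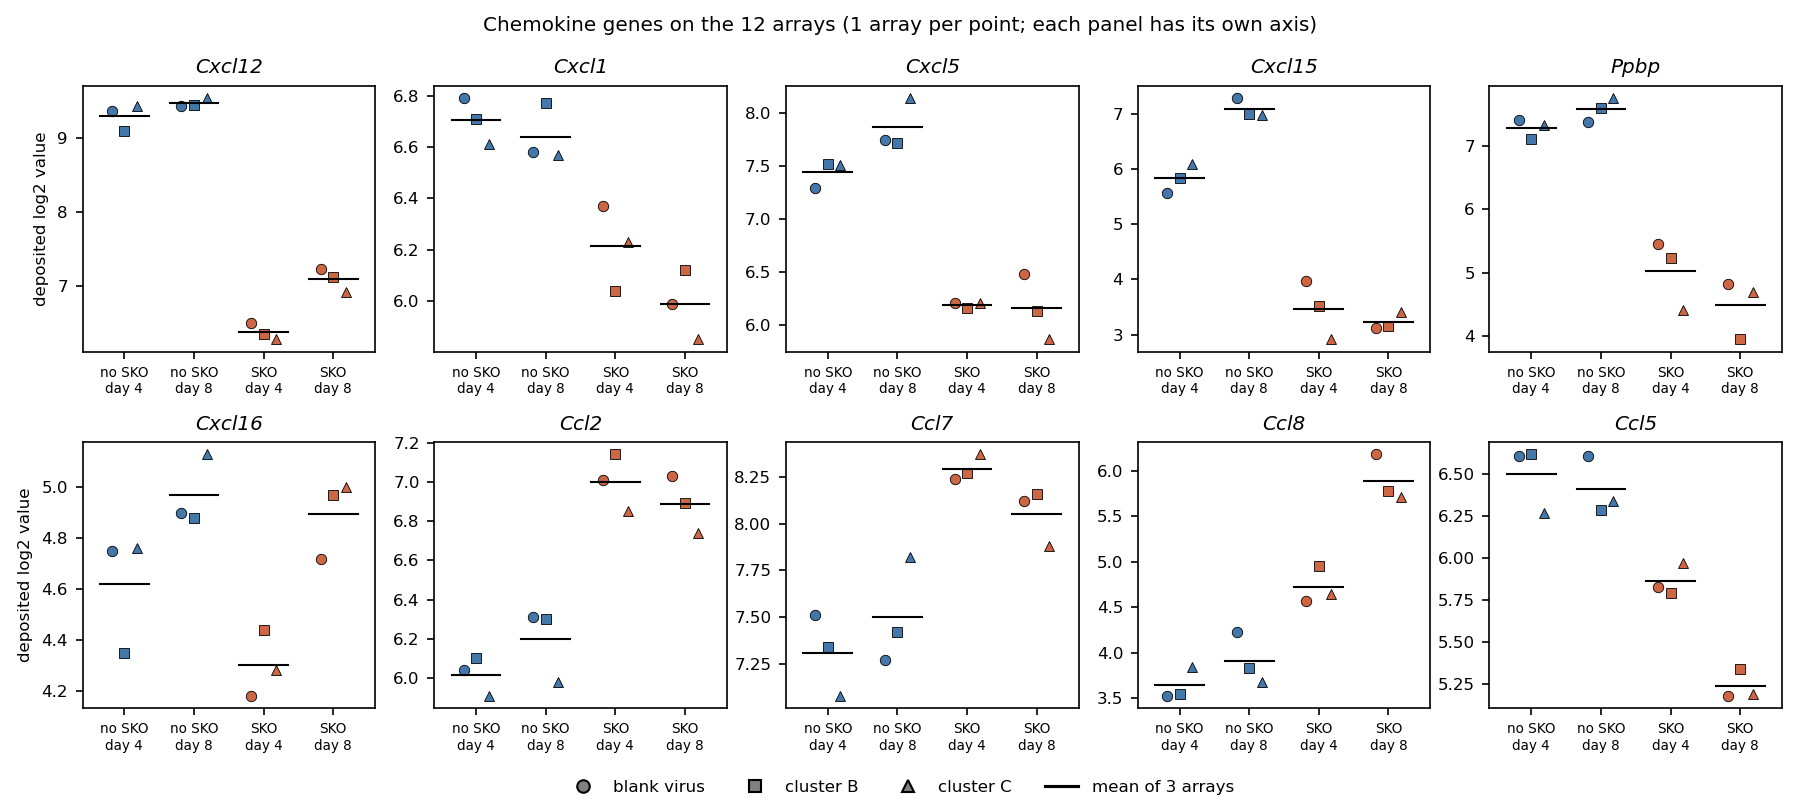
Deposited log2 value of each of the 10 genes on each of the 12 arrays (y axis, a separate scale for each gene), by arm and day (x axis); symbols give the virus and lines the mean of 3 arrays. Cxcl12 ranged from 6.27 to 7.23 in the SKO arm and from 9.09 to 9.54 in the other, while Ccl8 was higher with SKO and Cxcl16 overlapped between the arms.

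Cxcl12, which binds Cxcr4 and the scavenging receptor Ackr3, had the smallest adjusted p of the 10 genes at both days. Without SKO it was at 9.36 with blank virus, 9.09 with cluster B and 9.43 with cluster C at day 4, and at 9.43, 9.45 and 9.54 at day 8. With SKO it was at 6.49, 6.34 and 6.27 at day 4 and at 7.23, 7.12 and 6.91 at day 8. All 6 arrays with SKO lay below all 6 without, and the highest value of the SKO arm was 7.23 against a lowest of 9.09 in the other. The difference was -2.93 ± 0.10 at day 4 (7.61-fold, limma adjusted p = 6.84e-07) and -2.38 ± 0.10 at day 8 (5.22-fold, adjusted p = 9.2e-07). In bulk RNA, fewer cells that express a gene and less RNA per cell cannot be told apart.

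Cxcl15, known as lungkine and best known from lung epithelium, showed the largest difference of the 10 at day 8. Without SKO it was at 5.57, 5.84 and 6.08 with blank virus, cluster B and cluster C at day 4, and at 7.28, 6.99 and 6.97 at day 8. With SKO it was at 3.97, 3.51 and 2.91 at day 4 and at 3.11, 3.16 and 3.41 at day 8. The arms did not overlap at either day. With SKO, 1 of the 3 values at day 4 and all 3 at day 8 lay under the lower quartile of their arrays, so Cxcl15 was dim there. The differences were -2.37 ± 0.24 at day 4 (limma adjusted p = 0.000162) and -3.85 ± 0.24 at day 8 (14.5-fold, adjusted p = 5.15e-06). The lung markers Sftpc and Scgb1a1 lay below the array median on all 12 arrays.

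Ppbp encodes platelet basic protein, whose processed form attracts neutrophils through Cxcr2. It lay between 7.11 and 7.75 on the 6 arrays without SKO. With SKO it was at 5.46, 5.23 and 4.41 at day 4 and at 4.83, 3.95 and 4.70 at day 8, in the order blank virus, cluster B and cluster C. The arms did not overlap, and the arrays with SKO were spread more widely (SD 0.55 and 0.47, n = 3) than those without (0.15 and 0.19). The differences were -2.25 ± 0.25 at day 4 (limma adjusted p = 0.000273) and -3.08 ± 0.25 at day 8 (8.47-fold, adjusted p = 2.4e-05). Of 5 platelet and megakaryocyte markers measured, Pf4, Gp9 and Gp5 lay below the array median on all 12 arrays. The log2 summed level of the 5 was 6.84 to 7.11 with SKO and 6.95 to 7.37 without. At day 8, 3 of them were called lower, where 12.7% of all genes were. The part of these markers in the Ppbp difference was not tested.

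Cxcl5, a neutrophil attractant of stromal and epithelial cells, was at 7.29, 7.52 and 7.51 without SKO at day 4 and at 7.74, 7.72 and 8.14 at day 8. With SKO it was at 6.20, 6.16 and 6.20 at day 4 and at 6.48, 6.13 and 5.86 at day 8. The arms did not overlap. It fell by 1.25 ± 0.14 at day 4 (limma adjusted p = 0.000289) and by 1.71 ± 0.14 at day 8 (adjusted p = 2.54e-05). Cxcl1, the related chemokine first found as a gene induced by serum growth factors in fibroblasts, changed least among the called CXC genes. It lay between 6.57 and 6.79 on the arrays without SKO, at 6.37, 6.04 and 6.23 with SKO at day 4, and at 5.99, 6.12 and 5.85 at day 8. The difference was -0.49 ± 0.12 at day 4 (limma adjusted p = 0.0223) and -0.65 ± 0.12 at day 8 (adjusted p = 0.00405). At day 4, leaving out 1 array of that day ended the call in 5 of 6 cases. In the SKO arm these were blank virus (-0.56, limma adjusted p = 0.0508) and cluster B (-0.34, adjusted p = 0.156). In the other arm they were blank virus (-0.41, adjusted p = 0.113), cluster B (-0.55, adjusted p = 0.0536) and cluster C (-0.50, adjusted p = 0.0883).

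**Figure D2:**
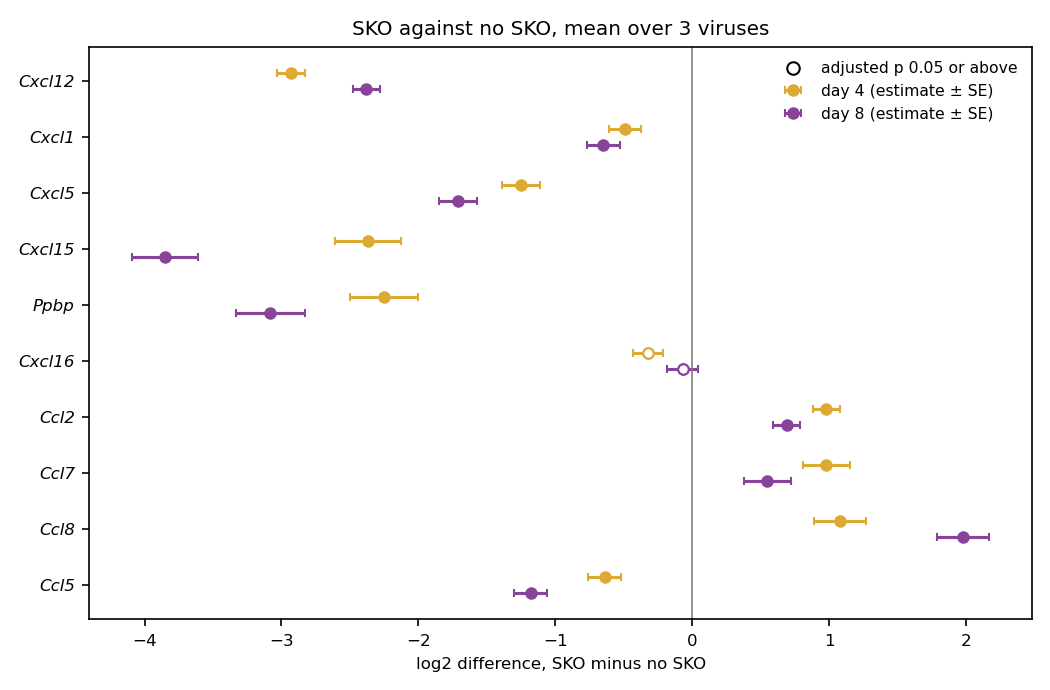
Log2 difference between arrays with and without SKO (x axis) for each of the 10 genes (y axis) at day 4 and day 8, averaged over the 3 viruses; bars are the SE of the limma fit and open points did not pass an adjusted p of 0.05. The CXC genes and Ccl5 lie left of 0, with Cxcl16 as open points, and Ccl2, Ccl7 and Ccl8 lie right of it.

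Ccl8, a CC chemokine that in the mouse acts through Ccr8, rose most. Without SKO it was at 3.53, 3.55 and 3.85 at day 4 and at 4.23, 3.83 and 3.68 at day 8. With SKO it was at 4.57, 4.95 and 4.65 at day 4 and at 6.18, 5.78 and 5.71 at day 8. The arms did not overlap, and 2 of the day 4 values without SKO lay under the lower quartile of their arrays. The difference was 1.08 ± 0.19 at day 4 (limma adjusted p = 0.00357) and 1.98 ± 0.19 at day 8 (3.94-fold, adjusted p = 6.75e-05).

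Ccl2, the monocyte attractant MCP-1, was at 6.04, 6.10 and 5.91 without SKO at day 4 and at 6.31, 6.30 and 5.98 at day 8. With SKO it was at 7.01, 7.14 and 6.85 at day 4 and at 7.03, 6.89 and 6.74 at day 8. All arrays with SKO were higher, by 0.98 ± 0.10 at day 4 (1.98-fold, limma adjusted p = 0.000202) and 0.69 ± 0.10 at day 8 (adjusted p = 0.00109). Ccl7, the related MCP-3, lay between 7.08 and 7.51 without SKO at day 4, between 8.24 and 8.37 with SKO at day 4, and between 7.88 and 8.16 with SKO at day 8. Without SKO at day 8 it was at 7.27 and 7.42 with blank virus and cluster B and at 7.82 with cluster C, just under the lowest array with SKO. It rose by 0.98 ± 0.17 at day 4 (limma adjusted p = 0.00418) and by 0.55 ± 0.17 at day 8 (adjusted p = 0.0465). The day 8 call stood close to the threshold. It was lost under equal array medians (0.52, adjusted p = 0.0585) and quantile normalization (0.50, adjusted p = 0.0599). Leaving out any of the 6 arrays with SKO ended it, with values of 0.48 to 0.68 and adjusted p from 0.0508 to 0.194. So did leaving out, in the arm without SKO, cluster B at day 4 (adjusted p = 0.0596), cluster B at day 8 (0.50, adjusted p = 0.155) or blank virus at day 8 (0.33, adjusted p = 0.262).

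Ccl5, or RANTES, attracts T cells and monocytes and is known to be induced by interferon and NF-kappa-B signalling. It lay between 6.27 and 6.62 on the 6 arrays without SKO, at 5.83, 5.79 and 5.97 with SKO at day 4, and at 5.18, 5.34 and 5.19 at day 8. It thus ran against the other CC genes described, with a difference of -0.64 ± 0.12 at day 4 (limma adjusted p = 0.00495) and -1.18 ± 0.12 at day 8 (2.26-fold, adjusted p = 9.5e-05). Of 15 interferon response genes measured, 12 were called lower with SKO at day 4 and 1 at day 8, where 9.4% and 12.7% of all genes were. The medians of the 15 were -1.05 and -0.03. Their log2 summed level ran at day 4 from 10.2 to 11.15 with SKO and from 11.84 to 11.98 without, and at day 8 from 10.55 to 10.84 and from 10.45 to 10.97. The gene still lower at day 8 was Ifit3 (-1.28 ± 0.37, adjusted p = 0.0339). The part of this shift in the Ccl5 difference was not tested.

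Cxcl16, a chemokine tethered to the membrane that binds Cxcr6, ranged from 4.18 to 5.0 in the SKO arm and from 4.35 to 5.13 in the other. The arms overlapped at both days. The difference was -0.32 ± 0.11 at day 4 (limma adjusted p = 0.0739, 95% interval -0.57 to -0.07) and -0.07 ± 0.11 at day 8 (adjusted p = 0.674, interval -0.32 to 0.18). On 11 of the 12 arrays its value lay below the array median.

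With a required change of more than 1.5-fold (limma's treat), Cxcl12, Cxcl15, Ppbp and Cxcl5 still passed at day 4, which leaves 4 of the 9 calls, all of them lower. Of all genes, 1.84% then passed as higher and 1.15% as lower. At day 8, Cxcl1, Ccl2 and Ccl7 no longer passed and 6 of 9 did, 1 of them higher (Ccl8), where 3.23% and 1.96% of all genes passed.

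Several of these genes sit beside each other, so their neighbours in the gene order of RefSeq (GRCm38.p6) were read, whatever their values. On chromosome 5, Cxcl5, Ppbp, Pf4, Cxcl3, Cxcl15, Cxcl1 and Cxcl2 follow each other. With SKO at day 8, 6 of these 7 were called lower, where 12.7% of all genes were. Besides the 4 described, these were Pf4 (-0.83 ± 0.17, limma adjusted p = 0.00726) and Cxcl3 (-0.57 ± 0.15, adjusted p = 0.0229). Cxcl2, at the end of the row, differed by -0.21 ± 0.13 (adjusted p = 0.273). The sizes did not follow the order: Ppbp and Cxcl15 differed most, and Pf4 and Cxcl3, which lie between them, much less. On chromosome 11, Ccl2, Ccl7, Ccl11, Ccl12, Ccl8 and Ccl1 follow each other. Ccl11, the eosinophil attractant eotaxin, was higher with SKO at day 8 (0.76 ± 0.12, adjusted p = 0.00166) and not at day 4 (-0.05 ± 0.12, adjusted p = 0.816). Ccl12 was lower at day 4 (-0.50 ± 0.11, adjusted p = 0.00966) and day 8 (-0.59 ± 0.11, adjusted p = 0.00311), and Ccl1 was called lower at day 8 (-0.48 ± 0.11, adjusted p = 0.0126), so the row did not move as a block. Ccl5 lies with Ccl9, Ccl6, Ccl3 and Ccl4 in a second row on chromosome 11, where at day 8 Ccl9 was lower (-0.67 ± 0.13, adjusted p = 0.00489), Ccl3 was lower at day 4 (-0.57 ± 0.14, adjusted p = 0.0235), and Ccl6 and Ccl4 were called at neither day. Pf4, Cxcl2, Ccl1, Ccl3, Ccl4 and Ccl6 lay below the array median on all 12 arrays, so small or absent differences there say less. Ccl2, Ccl7 and Ccl12 are close relatives, as are Cxcl1, Cxcl2 and Cxcl3, and whether each probe set reads only its own gene was not tested.

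**Figure D3:**
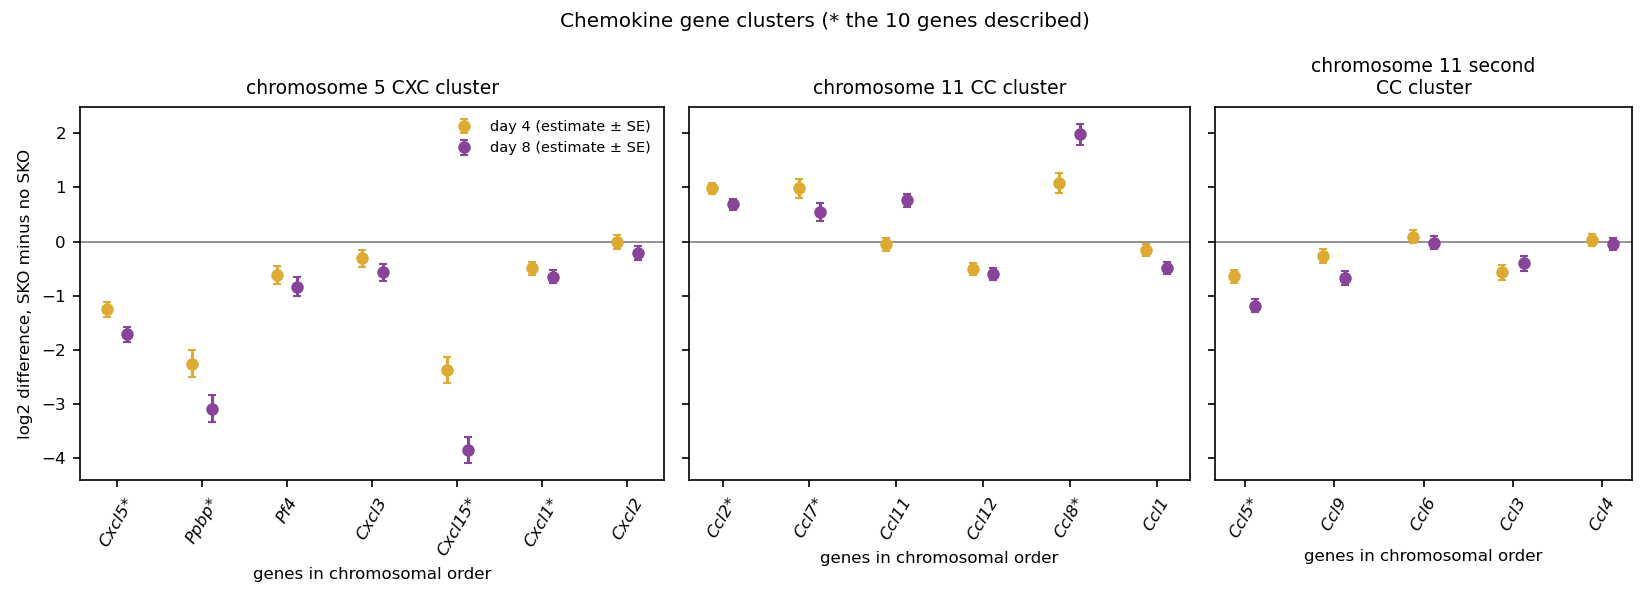
Log2 difference between arrays with and without SKO (y axis) at day 4 and day 8 for chemokine genes in chromosomal order (x axis, not to scale) in 3 gene clusters; bars are the SE of the limma fit and asterisks mark the genes described here. On chromosome 5 the largest falls are those of Ppbp and Cxcl15, and on chromosome 11 Ccl2, Ccl7 and Ccl8 lie above 0 while Ccl12 between them lies below.

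Among 26 other chemokine ligands, 1 was called higher and 5 lower with SKO at day 4, and 1 higher and 11 lower at day 8, with medians of -0.15 and -0.38. The shares over all genes were 9.52% higher and 9.4% lower at day 4, and 13.4% and 12.7% at day 8. Of the 26, 17 lay below the array median on all 12 arrays. The largest falls were those of Cxcl10, an interferon-induced attractant of T cells (-2.55 ± 0.16 at day 4, limma adjusted p = 1.33e-05, and -1.25 ± 0.16 at day 8, adjusted p = 0.000461), and Cx3cl1, or fractalkine (-0.91 ± 0.12 and -1.11 ± 0.12). Cxcl14 was the 1 ligand higher at day 4 (0.82 ± 0.13, adjusted p = 0.00216), and Ccl11 the 1 higher at day 8.

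Receptors were read next. Cxcr4, the signalling receptor for Cxcl12, moved opposite to its ligand. It was at 6.58, 6.67 and 6.42 with SKO at day 4 and at 7.46, 7.27 and 7.26 at day 8, against 4.21, 5.01 and 5.0 and then 5.34, 5.21 and 4.86 without SKO, in the order blank virus, cluster B and cluster C. The arms did not overlap. It rose with SKO by 1.81 ± 0.21 at day 4 (limma adjusted p = 0.000347) and by 2.19 ± 0.21 at day 8 (adjusted p = 6.75e-05). Ackr3, the other Cxcl12 receptor, ranged from 5.90 to 6.85 in the SKO arm and from 5.66 to 6.51 in the other, and was not called at day 4 (0.26 ± 0.23, adjusted p = 0.502) or day 8 (0.15 ± 0.23, adjusted p = 0.654). Of 22 chemokine receptors measured, 2 were called higher at day 4, Cxcr4 and the scavenging receptor Ackr1 (0.60 ± 0.14, adjusted p = 0.0157). At day 8, 3 were called higher, Cxcr4, Ackr1 (0.47 ± 0.14, adjusted p = 0.036) and Ccrl2 (0.82 ± 0.13, adjusted p = 0.00181), and Ackr4 was lower (-0.52 ± 0.12, adjusted p = 0.0101). The counts called higher were close to the shares of all genes, 9.52% at day 4 and 13.4% at day 8. The receptors for the other ligands described were dim: Cxcr2, Cxcr6, Ccr1, Ccr2, Ccr3 and Ccr8 were among 18 of the 22 that lay below the array median on all 12 arrays. Ackr1, Ccrl2 and Ackr4 were also among these 18, so of the called receptors only Cxcr4 was not dim in this sense.

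Proteins that cut chemokines or hold them at the cell surface were the next group, and 1 gene stood out. Dpp4, a protease of the cell surface known to remove the first residues of Cxcl12 and so to end its activity on Cxcr4, was at 7.49, 7.30 and 7.74 with SKO at day 4 and at 9.34, 9.28 and 9.50 at day 8. Without SKO it lay between 3.42 and 4.41. It rose by 3.33 ± 0.14 at day 4 (limma adjusted p = 1.84e-06) and by 5.73 ± 0.14 at day 8 (adjusted p = 1.49e-07). Of the 16 genes measured in this group, 1 was called higher and 6 lower at day 4, and 2 higher and 7 lower at day 8. Among all genes, 9.52% were called higher and 9.4% lower at day 4, and 13.4% and 12.7% at day 8. The membrane metalloproteinase gene Mmp14 was lower at day 4 and day 8 (-1.02 ± 0.10 and -0.90 ± 0.10), as were the syndecan gene Sdc3 (-0.77 ± 0.10 and -0.80 ± 0.10) and the gelatinase gene Mmp2 (-0.54 ± 0.11 and -1.07 ± 0.11). Hs6st1 was called higher at day 8 (0.55 ± 0.10).

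**Figure D4:**
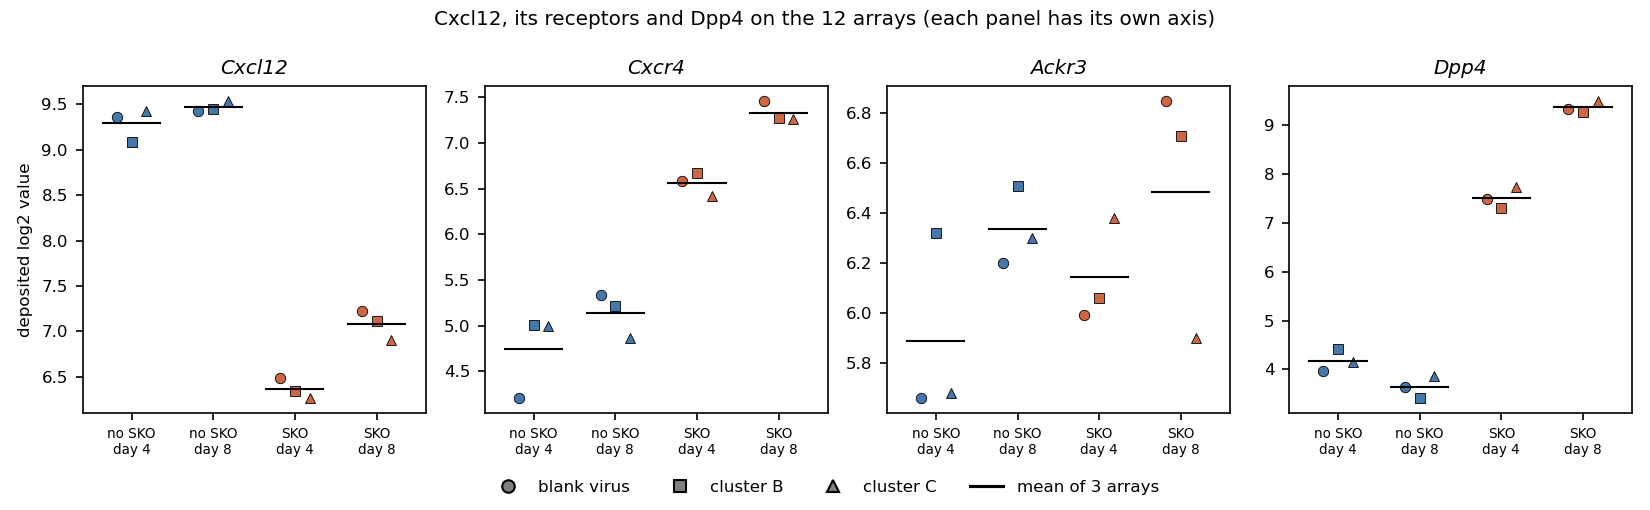
Deposited log2 value of Cxcl12, its receptors Cxcr4 and Ackr3, and the protease gene Dpp4 on each of the 12 arrays (y axis, a separate scale for each gene), by arm and day (x axis); symbols give the virus and lines the mean of 3 arrays. Cxcl12 is lower with SKO, Cxcr4 and Dpp4 are higher on every array with SKO, and Ackr3 overlaps between the arms.

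Genes of the NF-kappa-B pathway and inflammatory cytokines went both ways. Of 28 measured, 3 were called higher and 8 lower with SKO at day 4, and 6 higher and 10 lower at day 8, with a median of -0.16 at both days. Among all genes, 9.52% were called higher and 9.4% lower at day 4, and 13.4% and 12.7% at day 8. Tnfaip3, an inhibitor of the pathway, was higher at day 4 (0.75 ± 0.12, limma adjusted p = 0.00199) and day 8 (0.58 ± 0.12), as were the receptor gene Tlr2 (0.49 ± 0.14 and 0.95 ± 0.14) and Ikbkg (0.37 ± 0.11 and 0.86 ± 0.11). The macrophage growth factor gene Csf1 (-0.80 ± 0.12 and -0.83 ± 0.12), the adaptor gene Myd88 (-0.66 ± 0.10 and -0.53 ± 0.10) and the adhesion gene Icam1 (-0.49 ± 0.12 and -1.09 ± 0.12) were lower at both days. The cytokine gene Il33 was called lower at day 8 (-1.56 ± 0.11) and was at -0.09 ± 0.11 at day 4.

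Marker genes of cell types moved with SKO as well. Beside the counts that follow, 9.52% of all genes were called higher and 9.4% lower at day 4, and 13.4% and 12.7% at day 8. Of the 14 fibroblast markers, 9 were lower and 1 higher at day 4, and 11 were lower at day 8. Their log2 summed level ran from 14.01 to 14.40 with SKO and from 14.96 to 15.21 without. Pdgfra, which encodes a growth factor receptor, was lower by limma at day 4 and day 8 (-2.19 ± 0.11 and -1.51 ± 0.11), as was the matrix gene Lum (-1.30 ± 0.10 and -3.01 ± 0.10). Epithelial markers went up, with 4 of 7 higher at day 4 and 5 at day 8, where Epcam rose by 3.49 ± 0.15. Among 14 leukocyte markers, 2 were higher and 2 lower at day 4 and 2 higher and 9 lower at day 8. Laptm5 (1.77 ± 0.14 and 1.14 ± 0.14) and Itgam (0.84 ± 0.12 and 1.41 ± 0.12) were the 2 higher ones, and Lyz2 was lower (-0.74 ± 0.13 and -1.30 ± 0.13), at day 4 and day 8. Of the 14, 7 lay below the array median on all 12 arrays, among them the pan-leukocyte gene Ptprc, and their log2 summed level was 8.81 to 9.09 with SKO and 8.77 to 9.50 without. Of 8 endothelial markers, Tek was called higher at both days and Pecam1, Cdh5, Kdr, Emcn, Tie1 and Esam lay below the array median on all 12 arrays. Of 9 markers of pluripotent cells, 4 were higher at day 8, when their log2 summed level ran from 8.41 to 11.24 over the 3 arrays with SKO. At day 4 their median difference was -0.19. The part of these shifts in the chemokine differences was not tested.

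The second comparison set day 8 against day 4 within each arm. With SKO, Cxcl12, Cxcl16 and Ccl8 rose and Ccl5 fell with time: 3 of 10 higher and 1 lower, where 5.24% of all genes were called higher and 3.66% lower. Without SKO, Cxcl15 alone of the 10 rose and 0 fell, where 4.05% and 4.63% of all genes were called. Cxcl12 with SKO rose in all 3 virus pairs, by 0.74, 0.78 and 0.64, giving 0.72 ± 0.10 (limma adjusted p = 0.00354), which brought it only part of the way to the level without SKO. Without SKO it differed by 0.18 ± 0.10 (adjusted p = 0.326). Ccl8 with SKO rose by 1.17 ± 0.19 (adjusted p = 0.00601), and without SKO it differed by 0.27 ± 0.19 (adjusted p = 0.416).

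Ccl5 with SKO fell by 0.63 ± 0.12 from day 4 to day 8 (limma adjusted p = 0.0124), and without SKO it differed by -0.09 ± 0.12 (adjusted p = 0.699). Over the same days, 0 of the 15 interferon response genes were called by limma with SKO (median 0.0, 2 at an unadjusted p under 0.05). Without SKO, 10 of them fell (median -1.03). Of all genes, 5.24% were called higher and 3.66% lower with SKO, and 4.05% and 4.63% without. At an unadjusted p under 0.05 there were 4565 of all 19938 genes with SKO. The Ccl5 fall lost the call when either blank virus array of the SKO arm (-0.61, adjusted p = 0.0815) or either cluster C array of it (-0.55, adjusted p = 0.0762) was left out. Cxcl16 with SKO rose by 0.60 ± 0.11 (adjusted p = 0.0111), higher at day 8 in all 3 pairs, and without SKO differed by 0.35 ± 0.11 (adjusted p = 0.0857). Without any 1 of the 6 arrays with SKO the Cxcl16 rise lay between 0.54 and 0.63 and missed the threshold, with adjusted p from 0.0555 to 0.0671. Cxcl15 without SKO rose by 1.25 ± 0.24 (2.38-fold, adjusted p = 0.015). That call was lost without either array of blank virus (1.02, adjusted p = 0.0947) or of cluster B (1.30, adjusted p = 0.0629) in the arm without SKO. All 5 calls over time were lost when a change of more than 1.5-fold was required. At that setting 0.627% of all genes passed as higher and 0.0351% as lower with SKO, and 0.371% and 0.0702% without.

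**Figure D5:**
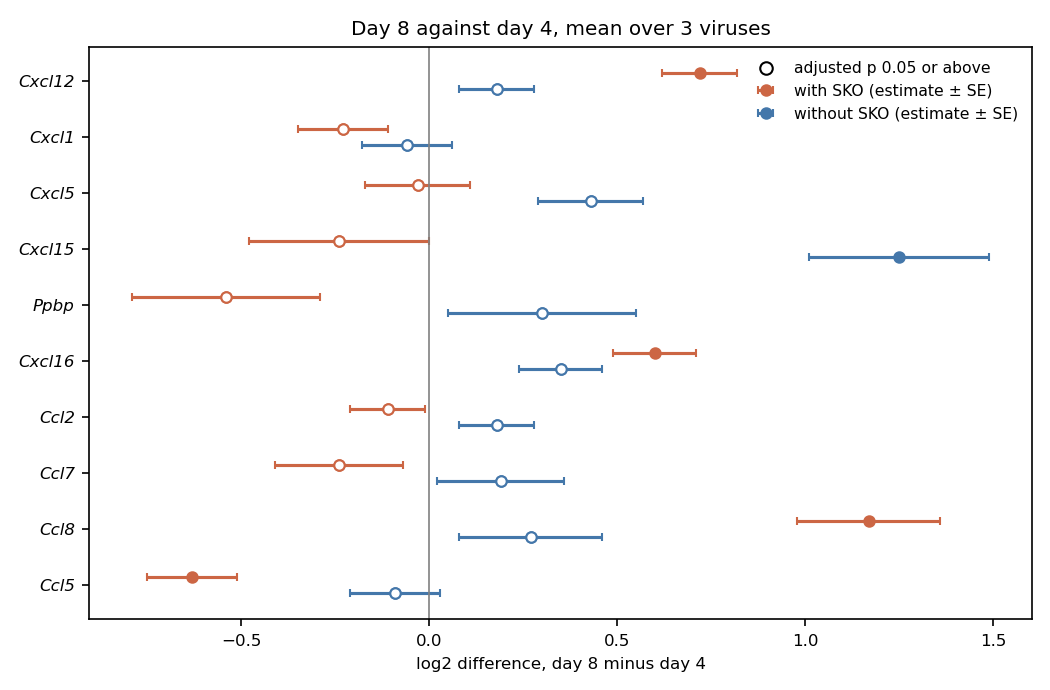
Log2 difference between day 8 and day 4 (x axis) for each of the 10 genes (y axis), with and without SKO, averaged over the 3 viruses; bars are the SE of the limma fit and open points did not pass an adjusted p of 0.05. With SKO, Ccl8, Cxcl12 and Cxcl16 lie to the right and Ccl5 to the left, and without SKO only Cxcl15 passed.

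For the other genes the difference over time was smaller than the spread allowed the fit to call. Cxcl5 without SKO was at 0.43 ± 0.14 (limma adjusted p = 0.0908). It passed with dim genes left out (adjusted p = 0.0373) and with limma's trend and robust options together (adjusted p = 0.0205). Ppbp with SKO was at -0.54 ± 0.25 (adjusted p = 0.237). It reached -0.95 (adjusted p = 0.0338) when either cluster C array of that arm was left out, the pair in which it was 0.29 higher at day 8. Cxcl1, Ccl2 and Ccl7 lay between -0.24 and 0.19 in both arms.

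Whether the change over time differed between the arms was tested as an interaction. Of the 10 genes, 0 passed in either direction with limma, where 1.97% of all genes were called higher and 1.0% lower, and 6 of the 10 had an unadjusted p under 0.05, as did 17.3% of all genes. The largest values were those of Cxcl15 (-1.49 ± 0.34, adjusted p = 0.0528), Ccl8 (0.90 ± 0.26, adjusted p = 0.118), Ppbp (-0.83 ± 0.35, adjusted p = 0.26), Cxcl12 (0.54 ± 0.15, adjusted p = 0.093) and Ccl5 (-0.54 ± 0.17, adjusted p = 0.134). Each had the same sign in all 3 virus sets. Cxcl15 passed under 4 of the alternatives, with equal array medians (adjusted p = 0.0449), dim genes left out (0.0187), viruses taken as replicates (0.0139) or limma's trend and robust options together (0.01). It also passed when either cluster C array of the SKO arm was left out (-1.86, adjusted p = 0.022). Cxcl12 passed with dim genes left out (0.0314) and with the trend and robust options (0.00976), and Ccl8 with those options (0.0477). In the fit reported here, a call with SKO and none without is therefore not shown to be a difference between the arms.

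Other chemokine ligands gave calls on that interaction. Cxcl14 rose from 6.80, 6.39 and 6.64 to 8.19, 8.43 and 8.44 without SKO and stayed between 7.35 and 7.54 with SKO (interaction -1.65 ± 0.18, limma adjusted p = 0.00261). It was thus higher with SKO at day 4 and lower at day 8 (-0.84 ± 0.13, adjusted p = 0.00134). Cxcl10 without SKO fell from 7.76, 7.51 and 6.68 to 5.87, 5.12 and 5.09, against a change from 4.88, 4.56 and 4.86 to 4.53, 3.79 and 4.01 with SKO (interaction 1.31 ± 0.23, adjusted p = 0.0198). Ccl11, in the gene cluster that also holds Ccl8, rose with SKO by 1.04 ± 0.12 (adjusted p = 0.00127), and its interaction was 0.82 ± 0.17 (adjusted p = 0.0419). Dpp4 rose by 1.87 ± 0.14 from day 4 to day 8 with SKO (adjusted p = 0.000181), with an interaction of 2.40 ± 0.20 (adjusted p = 0.00075).

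The third comparison asked what each microRNA cluster did to the 10 genes. None was called by limma in any of 8 comparisons between viruses or of virus effects between arms. With SKO, 0.01% of all genes were called for cluster B against blank virus, and 0.0201% both for cluster C against blank virus and for cluster C against cluster B; in the other 5 comparisons 0.0% were called. At an unadjusted p under 0.05 there was 0 of 10 genes in 5 of the 8 comparisons and 1 of 10 in each of the other three. The share of all genes with an unadjusted p under 0.05 was 3.08%, 6.82% and 5.53% in the 3 comparisons with SKO (cluster B, cluster C, and C against B), and 5.86%, 4.72% and 6.32% in those without. It was 5.2% and 5.79% for the differences between arms in the effects of clusters B and C. Each alternative run for these comparisons also gave 0 calls among the 10. Ppbp had the largest value with SKO, at -0.55 ± 0.30 with cluster B (95% interval -1.24 to 0.13) and -0.59 ± 0.30 with cluster C (interval -1.27 to 0.09). Both values turned on single arrays. That for cluster B was -1.11 without its day 4 array and -0.0 without its day 8 array, and that for cluster C was 0.03 without its day 4 array and -1.21 without its day 8 array. Cxcl12 was at -0.13 ± 0.13 with cluster B (interval -0.42 to 0.15) and at -0.27 ± 0.13 with cluster C (interval -0.55 to 0.02) in that arm. A fall of 1.5-fold lies inside both Ppbp intervals and just outside that of Cxcl12 with cluster C. Without SKO, the values ran from -0.21 to 0.10 with cluster B and from -0.31 to 0.31 with cluster C, with Cxcl5 highest (0.31 ± 0.17) and Ccl5 lowest (-0.31 ± 0.14).

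For the 4 genes with the widest range over the 12 arrays, the genes with the most similar pattern were read from 9663 brighter genes by Pearson's r. The arrays fall into 2 sets by SKO, which alone gives a high r, so r within each arm of 6 arrays is given as well, all as description. Nearest to Cxcl12 were Lrrc17 (r = 0.996, and 0.93 with SKO and 0.84 without), the collagen crosslinking enzyme gene Lox (0.993, 0.95 and 0.71) and Lrig3 (0.992, 0.96 and 0.79). Nearest to Cxcl15 were Rnf144a (0.990, 0.75 and 0.96), the growth factor receptor gene Fgfr2 (0.989, 0.60 and 0.99) and C1qtnf6 (0.986, 0.70 and 0.91). Nearest to Ppbp were Mpzl1 (0.985, 0.84 and 0.63), Cmtm3 (0.979, 0.84 and -0.33) and the hypoxia factor gene Hif1a (0.978, 0.96 and 0.54). Nearest to Ccl8 were Upk1b (0.979, 0.95 and 0.73), Aox1 (0.975, 0.95 and 0.56) and Galnt15 (0.974, 0.96 and 0.53).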

How the data were processed

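Per the labels' protocols, 100 ng of total RNA per sample was biotin-labelled for whole-transcript arrays of Affymetrix, 12 in all. The authors deposited log2 values; the submitters' processing notes name RMA and Partek and give neither versions nor roles. Values ran from 0.92 to 14.03, the range of a log2 scale. No genome build of the files is stated in the labels or headers. The most similar arrays differed by 0.167 on average over all 28853 probe sets, and none was a copy. RMA values carry no counts, and the number of arrays limits precision.

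Of 28853 probe sets, 21789 had 1 gene in the platform annotation, 1621 several and 5443 none. For each gene the probe set with the highest mean was kept, and symbols were compared with RefSeq (21698 matched, 0 changed). The test was that of limma 3.58.1 (R 4.3.3), from 1 fit with 8 coefficients, 4 residual degrees of freedom and 4.94 prior ones, over 13 comparisons. Tables and figures were made in Python 3.11.15 (pandas 2.3.3, numpy 2.4.6, matplotlib 3.10.9).

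On simulated data for 19938 genes with 200 changed, the fit for SKO at day 8 found 48% of genes changed by 0.58 log2 units, 82% of those changed by 1, 98% by 2 and 100% by 3, and 4.1% of its calls were false. For day without SKO the shares were 36%, 84%, 96% and 100%, with 2.5% false calls. The simulation drew independent normal noise with each gene's residual SD from this fit, and other effects of SKO and day were set to 0. It thus shows the fit under its own assumptions. In the data, 2674 genes were called higher and 2525 lower with SKO at day 8, far more than the 200 changed here.

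The members and lists were chosen with earlier results of these data known. All 10 members are named, with up to 2 rises and 2 falls of each list in each comparison of SKO and day, and 3 genes nearest in pattern to the 4 members of widest range. Genes named outside that rule are neighbours on the chromosome, receptors of the members, markers named with their level, and values of named genes at the other day or in the interaction. Alternatives were equal array medians, quantile normalization, leaving out genes not at 5 or above on 3 arrays, the mean over probe sets, limma's trend and robust options, a minimum change of 1.5-fold, viruses taken as replicates, each arm alone and leaving out each array.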

Additional observations from a re-analysis of the deposited data

How the results depend on the processing

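The fit already matched arrays by virus. No paired analysis was possible because the labels give no replicate numbers, apart from that matching. The counts below are of the 10 genes called. For SKO at day 4, 9 became 4 with a minimum change of 1.5-fold, and for SKO at day 8 no alternative moved the count of 9 by more than 1.5 times. For day with SKO, 4 became 0 with that minimum and ran from 2 to 4 when 1 array was left out. For day without SKO, 1 became 0 with that minimum, 2 with dim genes left out and 2 with the trend and robust options. It ran from 0 to 1 when 1 array was left out. For the interaction of day and SKO, 0 became 1 with equal array medians, 2 with dim genes left out and 1 with viruses taken as replicates. It became 3 with the trend and robust options, and ran from 0 to 1 when 1 array was left out. For the 8 comparisons of clusters, each alternative run gave 0; taking viruses as replicates was not possible for them, nor was 1 arm alone for the 2 that compare arms.

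No value that was called changed sign. Uncalled values near 0 did when 1 array was left out: Cxcl16 for SKO at day 8 ran from -0.17 to 0.02. With SKO over time, Cxcl5 ran from -0.18 to 0.12 and Cxcl15 from -0.60 to 0.07. Without SKO over time, Cxcl1 ran from -0.12 to 0.01, Ccl7 from -0.08 to 0.41 and Ccl5 from -0.16 to 0.03. For clusters, Ppbp ran from -1.21 to 0.03 (cluster C, with SKO) and from -1.08 to 0.03 (cluster B effect between arms), Ccl5 from -0.11 to 0.15 (cluster C against B, with SKO) and Cxcl5 from -0.07 to 0.28 (cluster B, without SKO). Apart from the alternatives' own construction, the causes were not tested. Each array stands for a whole condition, so a cluster effect present on 1 day counts as error in this fit. Signal over background limits Cxcl15 with SKO and Ccl8 without it, where some arrays lay under the lower quartile.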
